A study of Homo sapiens with 15 samples.

Results

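Gene expression in cells given Telmisartan before cisplatin was compared with expression in cells given cisplatin alone. The 6 libraries were chosen by their labels, 3 Telmisartan + cisplatin and 3 cisplatin, out of 15 libraries in 5 groups, and 11113 of the 47634 listed genes had enough counts to be tested. All libraries came from IGROV-CP20, a human ovarian cancer line resistant to cisplatin, and were made by QuantSeq, which reads the 3′ end of polyadenylated RNA so that counts do not grow with the length of a transcript. The cisplatin group received 50 µM cisplatin for 24 h. The Telmisartan group received 10 µM Telmisartan for 24 h and then the same cisplatin treatment for 24 h. The other groups were untreated cells and cells given Tranilast or Amphotericin B in place of Telmisartan, at the same dose and times. The study asked whether the drugs act on routes to platinum resistance other than the pump ATP7B. There was no group with Telmisartan and no cisplatin, and no label gives a vehicle for the first 24 h, so the drug and the longer time of treatment cannot be told apart. The labels call the replicates biological and say nothing more of how they were made.

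Telmisartan blocks the type 1 angiotensin II receptor, the product of AGTR1, through which angiotensin II raises blood pressure, and it also acts as a partial agonist of PPARγ, a nuclear receptor that drives genes of fat storage and oxidation. Cisplatin enters cells in part through copper transporters such as SLC31A1, binds DNA and crosslinks neighbouring guanines, which stalls replication and transcription and activates p53. The copper pumps ATP7A and ATP7B can sequester or export platinum, and ATP7B is the pump that the study linked to the resistance of this line.

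The tables held between 2171154 and 2983548 counts for each of the 6 libraries. The 3 libraries of each group were not alike, and the library that stood apart in each group was closer to libraries with another label than to its own. Distances are medians of the absolute log2 CPM difference (CPM, counts scaled to the library total and its TMM factor) over the 4430 genes whose mean level reached 5 in log2 CPM. Telmisartan replicates 1 and 2 differed from each other by 0.173, and cisplatin replicates 2 and 3 by 0.249. The library labelled Telmisartan replicate 3 differed from its own replicates by 0.481 and 0.492, and from the 3 Tranilast libraries by 0.151 to 0.209. The library labelled cisplatin replicate 1 differed from its own replicates by 0.479 and 0.527, and from Telmisartan replicates 1 and 2 by 0.258 and 0.231. It was also near the Amphotericin B libraries, at 0.289 to 0.299. Telmisartan replicates 1 and 2 differed from the Amphotericin B libraries by 0.243 to 0.280 and by 0.243 to 0.270. The biological coefficient of variation, the spread between replicates beyond counting error, was 0.338 in the cisplatin group and 0.300 in the Telmisartan group. The coefficient was 0.0740 in untreated cells, 0.0839 in the Tranilast group and 0.180 in the Amphotericin B group. It fell to 0.184 in the cisplatin group without replicate 1 and to 0.112 in the Telmisartan group without replicate 3. Whether labels were exchanged was not tested. It cannot be told apart here from a difference between the replicates of a group, and an exchange would change every group mean and fold change below. The groups keep their labels, and each gene list is also given without these 2 libraries.

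**Figure D1:**
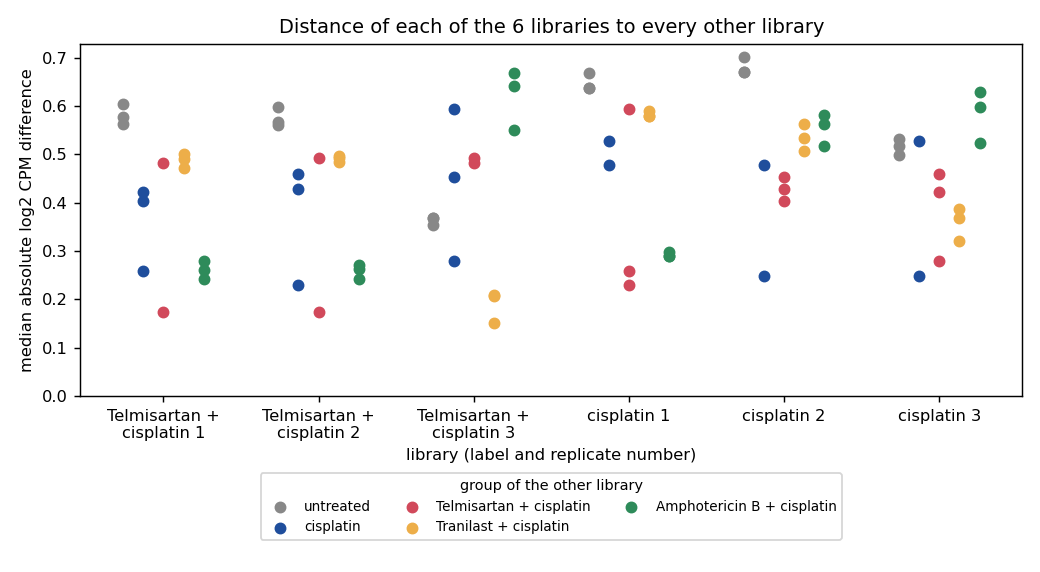
Median absolute log2 CPM difference (vertical axis) between each of the 6 libraries and every other library, coloured by the group of the other library. Telmisartan replicate 3 has its smallest distances, 0.151 to 0.209, to the Tranilast libraries, and cisplatin replicate 1 has its smallest, 0.231 and 0.258, to Telmisartan replicates 2 and 1.

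The same split appeared in what the libraries were made of. Mitochondrial ribosomal RNA, the product of MT-RNR1 and MT-RNR2, took 10.8%, 12.9% and 3.61% of the counts in Telmisartan replicates 1 to 3 and 13.7%, 5.61% and 3.41% in cisplatin replicates 1 to 3. Cytosolic ribosomal protein genes took 18.6%, 19.2% and 11.2% in the Telmisartan libraries and 21.8%, 17.5% and 15.7% in the cisplatin libraries. Telmisartan replicates 1 and 2 and cisplatin replicate 1 were thus high in both shares, and the groups overlapped. In the second share cisplatin replicate 2, at 17.5%, was close to these 3 libraries. In the untreated libraries the shares were 1.79% to 2.20% and 11.2% to 11.9%. They were 2.10% to 2.53% and 11.0% to 11.5% in the Tranilast libraries. In the Amphotericin B libraries both were high, at 12.3% to 14.8% and 18.6% to 19.5%. The part of this split in the results below was not tested, apart from the alternatives that leave libraries out or add the mitochondrial ribosomal RNA of each library to the model.

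**Figure D2:**
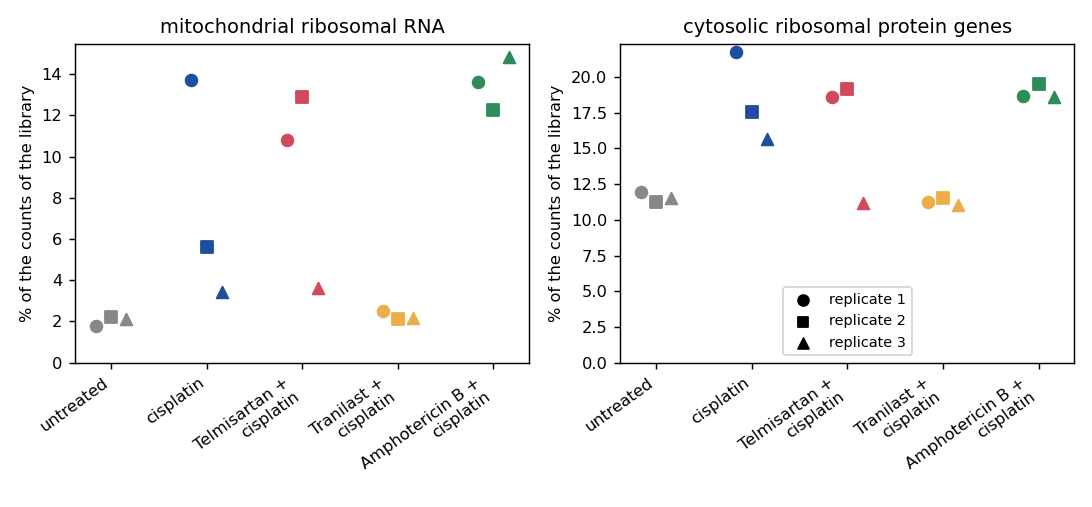
Share of the counts of each library (vertical axes, %) that fell on mitochondrial ribosomal RNA (left) and on cytosolic ribosomal protein genes (right), by group, with the marker shape giving the replicate number. Telmisartan replicates 1 and 2 and cisplatin replicate 1 lie at 10.8% to 13.7% on the left, and the other 3 libraries of these groups at 3.41% to 5.61%.

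No gene passed the test between the groups. With the quasi-likelihood test of edgeR over all 15 libraries and p adjusted by Benjamini and Hochberg, 0 genes were lower (0.0%) and 0 were higher (0.0%) at an adjusted p under 0.05, and the smallest adjusted p was 0.294. The likelihood ratio test of edgeR gave 13 lower and 11 higher, DESeq2 42 and 13, and limma-voom 0 and 0. At an unadjusted p under 0.05, 592 genes were lower (5.33% of the tested genes) and 558 were higher (5.02%). These shares are what counts of list members are read against below. They depend on the other groups in the fit. With the 6 libraries of the comparison alone, 182 of 9793 tested genes were lower and 135 higher at an unadjusted p under 0.05 (edgeR). The smallest adjusted p was then 0.999 (edgeR). Without the 2 libraries that stood apart, edgeR called 12.5% of 11260 tested genes lower and 12.4% higher at an adjusted p under 0.05. Every count of list members given below without the 2 libraries is at an adjusted p under 0.05 in that fit and is read against these 2 shares. The fit sets Telmisartan replicates 1 and 2 against cisplatin replicates 2 and 3, which lay close together within each group. The libraries left out were chosen on these data. Its adjusted p, also for single genes below, is therefore no independent support. The 3 Telmisartan libraries lay wholly below the 3 cisplatin libraries for 543 genes (4.89%) and wholly above for 487 (4.38%), in all 9.27% of genes. The median log2 fold change over all genes was 0.00. For the median gene the standard error was 0.30 (quartiles 0.23 and 0.41) and the 95% interval reached 0.64 to either side on the log2 scale, a 1.56-fold difference. That interval is not adjusted for the number of genes tested, so it is no limit of detection for the adjusted test. It also rests on the spread shared by all 5 groups. Some of these have closer replicates than the 2 compared here, so the interval may be too narrow for them. Differences larger than 1.56-fold could also miss the adjusted threshold with these replicates. RNA was measured in bulk, so a fall in cells of one state and a fall in RNA per cell cannot be told apart.

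TBCC had the smallest p of all tested genes in this comparison. It encodes tubulin-binding cofactor C, which takes part in the last step of folding tubulin dimers. TBCC (ENSG00000124659) stood at 94.9, 108 and 92.5 CPM in the Telmisartan libraries and at 135, 233 and 207 CPM in the cisplatin libraries. All Telmisartan values were below all cisplatin values, and the library labelled cisplatin replicate 1 was the closest of its group to them. The means were 98.6 ± 8.50 and 191 ± 50.5 CPM (SD, n = 3 each), a log2 fold change of -0.96 with a standard error of 0.19 (95% interval -1.35 to -0.57; edgeR quasi-likelihood test, adjusted p = 0.294, unadjusted p = 5.92e-05). Without the 2 libraries that stood apart the log2 fold change was -1.11 (edgeR adjusted p = 7.73e-06). With Tranilast or Amphotericin B in place of Telmisartan, TBCC stood at 92.4 ± 4.32 and 110 ± 9.78 CPM (SD, n = 3 each). Of the other members of its list, tubulins and the factors that fold them, only TUBB6, a β-tubulin, also had an unadjusted p under 0.05, with 387, 353 and 430 CPM against 365, 613 and 571 CPM, groups that overlap. The list had 15 tested members, 2 lower and 0 higher at an unadjusted p under 0.05, with a median log2 fold change of -0.01. With the 2 libraries left out 2 were lower and 6 higher, with a median of 0.22.

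GBP1 had the smallest p among the listed genes with higher values under Telmisartan. It encodes an interferon-inducible guanylate-binding GTPase of host defence. GBP1 (ENSG00000117228) stood at 23.0, 37.0 and 26.7 CPM with Telmisartan and at 17.4, 10.8 and 12.7 CPM with cisplatin alone. The groups did not overlap. GBP1 stood at 17.8 ± 3.36 CPM in the Tranilast group and at 25.6 ± 2.69 CPM in the Amphotericin B group. The mean with Telmisartan was also above the 18.6 ± 1.34 CPM of untreated cells (SD, n = 3 for each group). The means were 28.9 ± 7.27 and 13.6 ± 3.38 CPM, a log2 fold change of 1.08 with a standard error of 0.26 (95% interval 0.55 to 1.62; edgeR adjusted p = 0.294, unadjusted p = 0.000484), and 1.33 without the 2 libraries (edgeR adjusted p = 0.00132).

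PMAIP1 encodes NOXA, a BH3-only protein that p53 and ATF4 can induce and that neutralises MCL1. PMAIP1 (ENSG00000141682) stood at 41.3, 40.9 and 44.0 CPM with Telmisartan and at 53.8, 70.1 and 68.3 CPM with cisplatin alone. These groups did not overlap either, and the Telmisartan libraries were close to each other, the one labelled replicate 3 included. The log2 fold change was -0.61 with a standard error of 0.19 (95% interval -1.02 to -0.20; edgeR adjusted p = 0.315, unadjusted p = 0.00600), and -0.75 without the 2 libraries (edgeR adjusted p = 0.00791). The mean of 42.1 ± 1.71 CPM with Telmisartan stood between 26.4 ± 5.62 in untreated cells and 64.1 ± 8.98 with cisplatin alone (SD, n = 3 each). The Tranilast libraries stood at 36.5, 27.8 and 35.0 CPM.

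TBCC and GBP1 were also among the 16 genes, 8 in each direction, that had the smallest p, groups that do not overlap and a mean level of 3 or more in log2 CPM. These 16 were picked on this comparison, so their values describe it and support nothing further. The 8 with lower values had log2 fold changes from -1.01 to -0.87 with standard errors of 0.18 to 0.23. They were TBCC, INIP, FUT11, RBBP6, NCBP2AS2, TMEM158, C1orf109 and SRF. INIP, a subunit of the SOSS complex that binds single-stranded DNA at breaks, stood at 54.1, 65.7 and 79.5 CPM against 109, 137 and 119 CPM. RBBP6, a ubiquitin ligase and 3′ end processing factor that binds p53 and RB, stood at 216, 236 and 246 CPM against 326, 550 and 396 CPM. In INIP the 3 cisplatin libraries were close together, while in RBBP6 the library labelled cisplatin replicate 1 was the lowest of its group. TMEM158, a membrane protein gene induced by oncogenic Ras, stood at 38.3, 31.5 and 22.0 CPM against 59.9, 59.8 and 63.1 CPM. The transcription factor gene SRF, which drives growth-factor and actin-dependent genes, stood at 108, 133 and 114 CPM against 137, 293 and 247 CPM. FUT11, a fucosyltransferase gene, stood at 110, 152 and 123 CPM against 221, 292 and 200 CPM.

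The 8 with higher values, GBP1, FNBP1, PIGU, BCR, KAT6B, WWTR1, NCAPG2 and APBA2, had log2 fold changes from 0.81 to 1.38 with standard errors of 0.20 to 0.34. KAT6B, a histone acetyltransferase, stood at 14.8, 24.9 and 28.1 CPM against 12.9, 4.41 and 11.1 CPM. WWTR1, which encodes the Hippo pathway coactivator TAZ, stood at 40.8, 28.7 and 36.9 CPM against 21.8, 17.2 and 21.8 CPM. NCAPG2, a condensin II subunit, stood at 37.3, 48.6 and 35.2 CPM against 23.0, 23.1 and 21.4 CPM, the tightest cisplatin group of the 8. PIGU, a subunit of the transamidase that attaches GPI anchors, had the largest log2 fold change of the 8 but low values, 13.8, 13.3 and 11.3 CPM against 5.04, 2.45 and 6.75 CPM, and it overlaps NCOA6 on the same strand. BCR, a GTPase regulator, and FNBP1, a membrane-bending protein, also stood between 3.43 and 18.2 CPM in all 6 libraries. Without the 2 libraries that stood apart, all 16 genes had an adjusted p under 0.05 in edgeR, 8 in each direction, in a fit that called 12.5% of all genes lower and 12.4% higher.

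**Figure D3:**
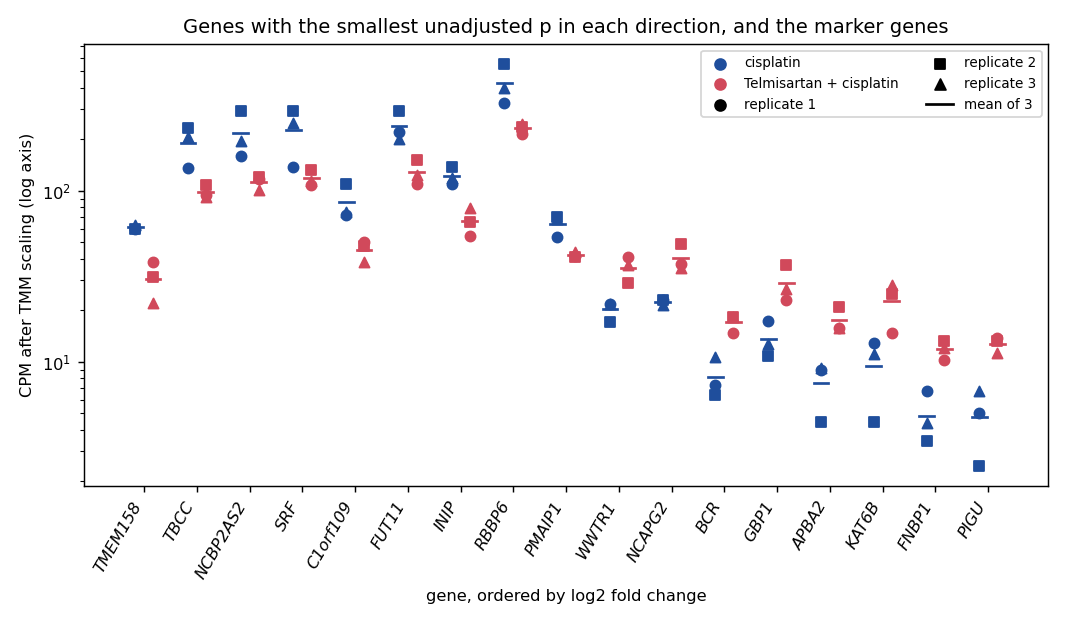
CPM after TMM scaling (vertical log axis) of PMAIP1 and of the 16 genes with the smallest unadjusted p, in the cisplatin (blue) and Telmisartan + cisplatin (red) libraries; marker shapes give the replicate number and bars the mean of 3. No group overlaps another here, since the 16 were picked for that, and TBCC lies at 92.5 to 108 CPM in red against 135 to 233 CPM in blue.

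Set beside the other groups, most of these genes had intermediate levels. They were picked for their distance from the same cisplatin libraries, and that choice alone favours a cisplatin mean beyond both other means. The share of all tested genes with this order was not counted, so the counts that follow describe these 16 only. For the 8 with lower values, untreated cells were below the cisplatin mean in 8 of 8, and the Telmisartan mean lay between the untreated and cisplatin means in 7; the exception was INIP. For the 8 with higher values, untreated cells were above the cisplatin mean in 8 of 8, and the Telmisartan mean lay between in 6; the exceptions were GBP1 and NCAPG2, where it was above both. The 3 drugs share the same cisplatin libraries, so they were compared with each other directly. None of the 16 genes differed between Telmisartan and Tranilast at an adjusted p under 0.05 (edgeR, smallest adjusted p = 0.0719, for KAT6B, log2 fold change -0.89), nor between Telmisartan and Amphotericin B (smallest 0.0936, for SRF, log2 fold change 1.16, with 52.7 ± 3.75 CPM under Amphotericin B against 118 ± 12.9 CPM; SD, n = 3). A p that misses the threshold does not show that the drugs act alike.

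The receptor that Telmisartan blocks was not detected. AGTR1 had 0 counts in each of the 15 libraries. In the 6 libraries compared here that is 0 of 14424408 counts, which allows a share of up to 2.08e-05% for counting error only. AGTR2, the other angiotensin II receptor, was also at 0 in all 15 libraries, and so in the 6 libraries was MAS1, a receptor for angiotensin fragments. Of the 13 genes of the angiotensin system 3 were tested: AGTRAP, which encodes a protein bound to the receptor; ATP6AP2, an accessory subunit of the vacuolar proton pump; and LNPEP, an aminopeptidase that binds angiotensin IV. None of the 3 had an unadjusted p under 0.05, and without the 2 libraries 0 were lower and 0 higher, with a median of 0.29 in place of 0.09. ATP6AP2 stood at 90.3, 89.5 and 67.2 CPM against 137, 81.4 and 65.9 CPM, with both groups spanning the same range apart from cisplatin replicate 1.

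PPARG itself was too low to test, with 22 counts in all over the 6 libraries, which is 1.10 to 2.76 CPM with Telmisartan and 0.79 to 1.96 CPM with cisplatin alone. Of 30 PPAR receptors and target genes 19 were tested, 0 lower and 3 higher at an unadjusted p under 0.05, with a median log2 fold change of 0.08. The 3 were CAT, ACSL3 and RXRA. CAT, the peroxisomal catalase, stood at 21.4, 12.2 and 17.6 CPM against 8.96, 11.8 and 9.93 CPM, which do not overlap. ACSL3, an acyl-CoA synthetase, stood at 65.8, 61.3 and 90.3 CPM against 68.3, 45.1 and 43.7 CPM, where cisplatin replicate 1 falls inside the Telmisartan range. RXRA, the partner receptor of the PPARs, stood at 18.9, 21.5 and 46.0 CPM against 15.7, 8.34 and 27.4 CPM. Without the 2 libraries 1 member was lower and 7 were higher at an adjusted p under 0.05 (edgeR), beside 12.5% and 12.4% of all genes in that fit, and the median was 0.60.

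The platinum transporters did not pass either. ATP7B had 7 counts in all over the 6 libraries and was not tested, and ATP7A, which overlaps PGK1 on the same strand, stood at 0 to 3.31 CPM with Telmisartan and 1.47 to 1.99 CPM with cisplatin alone. SLC31A1, which encodes the copper importer CTR1, stood at 50.0, 55.2 and 127 CPM against 91.8, 103 and 141 CPM. Telmisartan replicates 1 and 2 were below every cisplatin library and replicate 3 was inside their range. The log2 fold change of SLC31A1 was -0.51 with a standard error of 0.28 (edgeR adjusted p = 0.541), and -1.22 without the 2 libraries (edgeR adjusted p = 3.54e-05). Of the 19 tested genes for platinum and copper handling, 0 were lower and 0 were higher at an unadjusted p under 0.05, with a median log2 fold change of -0.12. The sign of that median turned, to 0.11, without the 2 libraries, where 2 were lower and 5 higher of 22 tested, and it was 0.18 without cisplatin replicate 1 alone.

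Interferon response genes gave 5 of 21 tested members with higher values at an unadjusted p under 0.05, against 5.02% of all genes, and 0 with lower values, and their median log2 fold change was 0.32. Besides GBP1 these included ISG15, a ubiquitin-like protein conjugated in response to interferon; IFIT1, which binds viral RNA lacking cap methylation; and DDX58, the RNA sensor RIG-I. ISG15 stood at 158, 166 and 135 CPM against 130, 99.1 and 96.1 CPM, which do not overlap. IFIT1 stood at 6.12, 9.39 and 26.1 CPM against 5.60, 4.41 and 7.15 CPM, and its log2 fold change of 1.35 was 0.41 without the library labelled Telmisartan replicate 3 and 0.38 without the 2 libraries. DDX58 had 0 to 3.92 CPM in the cisplatin libraries and 3.57 to 5.23 CPM with Telmisartan. Without the 2 libraries 3 members, GBP1 and ISG15 among them, had an adjusted p under 0.05 (edgeR), all with higher values, of 20 tested and beside 12.4% of all genes, while the median of the list was -0.10.

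Promoters of 3 of these genes are shown because they hold the core of the interferon-stimulated response element, the letters TTTC, any 2 bases and TTTC on either strand, in capitals. The windows are the 250 bases before the gene start in RefSeq on GRCh38.p14, a later build than the hg19 used for counting, written 5′ to 3′ in the direction of the gene. The core was found in 3.57% of the 35116 promoter windows of the reference, which also include 50 bases after the start. Of the 38 genes of the list, 31 had a window and 22 held the core, as did 3 of the 5 genes with an unadjusted p under 0.05. GBP1 (chr1:89065209-89065458, minus strand) holds 1 match, IFIT1 (chr10:89392373-89392622, plus strand) 2, and ISG15 (chr1:1013247-1013496, plus strand) 2 that overlap and lie on the other strand:
GBP1: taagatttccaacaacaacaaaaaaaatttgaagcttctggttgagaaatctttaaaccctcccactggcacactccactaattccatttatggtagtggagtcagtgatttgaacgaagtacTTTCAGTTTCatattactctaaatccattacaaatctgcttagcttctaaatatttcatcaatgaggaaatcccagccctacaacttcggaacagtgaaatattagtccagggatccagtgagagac
IFIT1: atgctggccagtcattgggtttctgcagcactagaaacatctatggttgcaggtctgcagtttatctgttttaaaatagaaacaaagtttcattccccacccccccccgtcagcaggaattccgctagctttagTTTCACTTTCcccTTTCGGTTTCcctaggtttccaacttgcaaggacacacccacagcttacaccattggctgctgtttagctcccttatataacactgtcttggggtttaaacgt
ISG15: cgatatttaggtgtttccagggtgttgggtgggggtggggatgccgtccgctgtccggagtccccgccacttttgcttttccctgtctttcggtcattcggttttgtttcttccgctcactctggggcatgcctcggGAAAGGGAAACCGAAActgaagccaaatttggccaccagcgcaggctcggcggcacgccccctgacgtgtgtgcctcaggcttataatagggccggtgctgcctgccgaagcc
The matches begin 127 bases before the start in GBP1, 116 and 103 in IFIT1, and 113 and 107 in ISG15. A match of letters is a description of the window and no evidence of binding.

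The integrated stress response, in which phosphorylated eIF2α slows translation and raises ATF4, gave 5 of 33 tested members with higher values and 0 with lower values at an unadjusted p under 0.05, and a median log2 fold change of 0.36. The 5 were EIF2AK2, DDIT3, CHAC1, PPP1R15A and DDIT4. DDIT3, the pro-apoptotic transcription factor CHOP, stood at 69.9, 75.1 and 124 CPM against 56.0, 26.5 and 71.9 CPM. CHAC1, which degrades glutathione, stood at 39.3, 51.4 and 121 CPM against 20.7, 10.8 and 62.0 CPM. In both genes replicate 3 was the highest library of each group, and the groups overlapped. PPP1R15A, the GADD34 subunit that dephosphorylates eIF2α, was the one member of the 5 whose groups did not overlap, at 80.6, 73.5 and 61.1 CPM against 57.1, 50.0 and 59.6 CPM. DDIT3 overlaps MARS1 on the other strand, and counting by strand is not stated in the sources used here. Measured as the median difference of the members from untreated cells, the list stood at -1.23, -1.23 and -0.37 log2 CPM in the Telmisartan libraries, at -1.36, -1.43 and -0.78 in the cisplatin libraries and at -0.16 to 0.02 in the Tranilast libraries. Telmisartan replicate 3 was thus the closest of the 6 to the Tranilast values, and without the 2 libraries the median log2 fold change of the list was -0.05, with 2 members lower and 1 higher at an adjusted p under 0.05 (edgeR).

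CHAC1 is shown with its promoter because it has the largest log2 fold change of these 5, 1.17 with a standard error of 0.47. The window (chr15:40953221-40953470, plus strand, RefSeq on GRCh38.p14) holds the composite element of C/EBP and ATF proteins, the letters TGATGNAA on either strand, once, 209 bases before the start, in capitals:
CHAC1: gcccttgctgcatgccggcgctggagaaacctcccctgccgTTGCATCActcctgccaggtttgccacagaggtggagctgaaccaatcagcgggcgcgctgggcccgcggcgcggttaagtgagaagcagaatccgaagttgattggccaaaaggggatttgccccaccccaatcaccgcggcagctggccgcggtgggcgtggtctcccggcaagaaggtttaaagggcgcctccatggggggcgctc
The letters were found in 3.62% of all promoter windows, and in 8 of the 28 genes of the list that had a window. Of the 5 members with an unadjusted p under 0.05, 1 held them, CHAC1 itself.

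The study grouped 9 genes as apoptosis on endoplasmic reticulum stress and 7 as response to hypoxia for these same libraries, so the lists are not independent of them. It took its Telmisartan terms from genes it found downregulated against cisplatin alone, and it described the hypoxia genes as suppressed. In the fit reported here 0 members of either list were lower at an adjusted p under 0.05 (edgeR). Of the 9, 1 was lower (PMAIP1) and 3 were higher (DDIT3, CHAC1, PPP1R15A) at an unadjusted p under 0.05, with a median of 0.47, and 2 were lower and 1 higher at an adjusted p under 0.05 without the 2 libraries (edgeR), with a median of -0.04. ATF4 stood at 1208, 1327 and 1438 CPM against 894, 591 and 1390 CPM, so that cisplatin replicate 3 was inside the Telmisartan range. TNFRSF10B, the death receptor DR5, stood at 42.9, 41.4 and 82.6 CPM against 34.7, 91.2 and 108 CPM, and its log2 fold change went from -0.47 (standard error 0.36) to -1.24 without the 2 libraries. CEBPB, TRIB3 and BBC3, which encodes the BH3-only protein PUMA, had log2 fold changes of 0.51, 0.50 and 0.17, with groups that overlapped, and each had a negative sign without the 2 libraries. Of the 7 hypoxia genes, PMAIP1 was lower and ANKRD1, a cardiac ankyrin repeat protein and target of YAP, was higher at an unadjusted p under 0.05. ANKRD1 stood at 758, 909 and 1087 CPM against 767, 424 and 693 CPM. VEGFA, the angiogenic growth factor, stood at 26.0, 28.7 and 35.0 CPM against 33.0, 30.9 and 27.8 CPM, with a log2 fold change of -0.02 and a 95% interval of -0.47 to 0.43. STC2, ZFP36L1 and MDM4 had log2 fold changes of 0.48, -0.26 and -0.01. The median of the 7 was -0.01, and without the 2 libraries it was -0.11, with 1 lower and 1 higher.

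Hypoxia-inducible factor genes that were listed apart from the study gave 1 lower and 2 higher of 24 tested members at an unadjusted p under 0.05, with a median of 0.05, and 5 lower and 4 higher without the 2 libraries, with a median of 0.14. SLC2A1, the glucose transporter GLUT1, was low but did not overlap, at 5.61, 6.63 and 6.33 CPM against 2.80, 2.94 and 1.59 CPM (log2 fold change 1.36, standard error 0.37). VHL, the ubiquitin ligase subunit that marks HIFα for degradation, stood at 99.0, 101 and 214 CPM against 171, 269 and 246 CPM. Telmisartan replicates 1 and 2 were below every cisplatin library for VHL while replicate 3 was not, and the log2 fold change moved from -0.72 to -1.37 without the 2 libraries (edgeR adjusted p = 6.17e-06).

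Genes of the p53 pathway gave 4 lower and 0 higher of 28 tested members at an unadjusted p under 0.05, with a median of -0.02. The 4 were PMAIP1, TRIAP1, AEN and BTG2. TRIAP1, a p53 target that restrains apoptosis, stood at 317, 353 and 246 CPM against 458, 602 and 429 CPM. AEN, a p53-induced nuclease, stood at 110, 114 and 144 CPM against 110, 279 and 204 CPM, and BTG2, an antiproliferative p53 target, at 9.70, 7.18 and 4.95 CPM against 8.96, 18.1 and 13.9 CPM. TRIAP1 did not overlap between the groups, while AEN and BTG2 overlapped through cisplatin replicate 1 alone. With the 2 libraries left out, 7 of the 28 were lower and 1 was higher at an adjusted p under 0.05 (edgeR), beside 12.5% and 12.4% of all genes, and the median was -0.29. In the BCL2 family, 1 of 12 tested members was lower, PMAIP1, and 1 was higher, HRK, a BH3-only gene at 3.57, 6.08 and 6.61 CPM against 2.24, 2.94 and 2.78 CPM. The median of this family was -0.08, and -0.34 without the 2 libraries, where 3 were lower and 0 higher.

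Immediate early genes, which cells switch on within minutes of a stimulus, gave 4 lower and 1 higher of 18 tested members at an unadjusted p under 0.05, with a median log2 fold change of -0.27. The median was -0.02 without the 2 libraries, with 5 lower and 2 higher of 19. KLF6, a zinc finger transcription factor, stood at 80.6, 87.3 and 101 CPM against 153, 190 and 121 CPM, and IER5, a regulator of the heat shock factor HSF1, at 140, 146 and 109 CPM against 198, 240 and 162 CPM. Neither overlapped. The other members with lower values were FOSB, a subunit of AP-1, and NR4A2, an orphan nuclear receptor, and JUND, another AP-1 subunit, had higher values at 154, 175 and 221 CPM against 106, 129 and 167 CPM. SRF, which binds CArG boxes in the promoters of many immediate early genes, had lower values as given above and has CArG boxes in its own promoter. The window with them, 1 of the 2 that RefSeq gives for SRF (chr6:43171019-43171268, plus strand, GRCh38.p14), holds 2, beginning 30 and 10 bases before the start, in capitals:
SRF: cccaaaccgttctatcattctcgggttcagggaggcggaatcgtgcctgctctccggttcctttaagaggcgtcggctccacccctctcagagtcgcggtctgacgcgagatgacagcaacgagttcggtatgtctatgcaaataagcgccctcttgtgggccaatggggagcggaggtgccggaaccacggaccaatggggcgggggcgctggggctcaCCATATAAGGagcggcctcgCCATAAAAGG
A CArG box was found in 1.29% of all promoter windows, and in 2 of the 18 immediate early genes that had a window, EGR1 and EGR2. Of the 5 immediate early genes with an unadjusted p under 0.05, 0 held it.

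Subunits and targets of NF-κB, the transcription factor of inflammation and survival, gave 2 lower and 0 higher of 12 tested members, with a median of -0.21. NFKBIB, an inhibitor that holds NF-κB in the cytoplasm, stood at 88.8, 124 and 121 CPM against 158, 236 and 183 CPM, without overlap. RELA, the p65 subunit, stood at 81.6, 102 and 116 CPM against 106, 182 and 147 CPM, where cisplatin replicate 1 was inside the Telmisartan range. The median was -0.78 without the 2 libraries, where 6 members were lower and 1 higher at an adjusted p under 0.05 (edgeR), beside 12.5% and 12.4% of all genes. In the NRF2 pathway of antioxidant genes 1 of 22 tested members was lower, SRXN1, which repairs oxidised peroxiredoxins, at 196, 225 and 222 CPM against 283, 426 and 382 CPM, and the list median was 0.14. In the NRF2 list 4 members were lower and 9 higher without the 2 libraries, with a median of 0.51.

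Among 54 tested DNA repair genes 3 were lower and 4 were higher at an unadjusted p under 0.05, with a median of 0.13, counts near the 5.33% and 5.02% of all genes. The median was -0.02 with the 2 libraries left out, and 8 were lower and 2 higher. Those lower at an unadjusted p under 0.05 were APEX2, an abasic endonuclease, at 30.6, 40.9 and 32.8 CPM against 34.7, 99.1 and 70.3 CPM; FEN1, the flap endonuclease, at 150, 119 and 143 CPM against 103, 310 and 250 CPM; and NEIL2, a glycosylase, at 65.3, 77.9 and 56.4 CPM against 84.0, 120 and 80.2 CPM. For APEX2 and FEN1 the library labelled cisplatin replicate 1 lay in or below the Telmisartan range, and only NEIL2 did not overlap. Those with higher values were FANCI, FANCC and BRIP1, known from the repair of DNA crosslinks, and ERCC6, which couples repair to transcription. FANCI stood at 88.3, 97.2 and 95.8 CPM against 93.5, 61.8 and 56.4 CPM, and the other 3 stood at 1.47 to 23.1 CPM in all libraries. DNA replication genes gave 2 lower (CCNE1, cyclin E1, among them) and 2 higher (MCM3 and MCM7) of 21, and mitosis genes 0 and 0 of 20, with medians of 0.08 and 0.03. The replication and mitosis lists without the 2 libraries gave 5 lower and 2 higher with a median of -0.05, and 3 lower and 2 higher with a median of -0.13.

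Chaperones of the endoplasmic reticulum gave 1 lower, SDF2L1, and 1 higher, XBP1, of 22 tested members, with a median of -0.06. The sign of the median turned, to 0.20, without the 2 libraries, where 1 was lower and 9 were higher, and it was 0.35 without cisplatin replicate 1 alone. SDF2L1, a cofactor of the chaperone BiP, stood at 240, 225 and 193 CPM against 259, 332 and 283 CPM, and XBP1, the transcription factor of the unfolded protein response, at 49.5, 42.5 and 42.9 CPM against 37.5, 19.1 and 33.0 CPM. Neither overlapped between the groups. Cytosolic heat shock proteins gave 0 and 0 of 11, with a median of 0.11, and 1 lower and 5 higher without the 2 libraries, with a median of 0.25. Cholesterol synthesis and uptake gave 2 lower and 0 higher of 25, with a median of -0.07, and the 2 were the sterol enzymes MSMO1, at 82.2, 70.1 and 71.8 CPM against 102, 118 and 105 CPM, and EBP, at 89.3, 100.0 and 93.9 CPM against 104, 168 and 110 CPM. In this list 4 genes were lower and 2 higher without the 2 libraries, with a median of -0.25. Core autophagy genes gave 1 lower, ATG12, and 1 higher, ATG10, of 27, with a median of -0.04, and 7 lower and 3 higher without the 2 libraries, with a median of -0.29. ATG10, which overlaps RPS23 on the other strand, stood at 18.9, 21.0 and 7.98 CPM against 15.1, 3.43 and 4.37 CPM, and its log2 fold change moved from 1.06 to 2.32 without the 2 libraries.

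Ribosomal protein genes had 0 of 77 tested members at an unadjusted p under 0.05 in either direction, with a median log2 fold change of -0.16 and 73 negative values. As the median difference from untreated cells they stood at 1.28, 1.37 and -0.05 log2 CPM in the Telmisartan libraries and at 1.68, 1.01 and 0.60 in the cisplatin libraries. The sign of the median turned, to 0.50, without the 2 libraries, and 51 members were higher and 0 lower at an adjusted p under 0.05 (edgeR). Proteasome subunits had 0 lower and 1 higher, PSMD1, of 30 tested members, with a median of 0.04, and 0 lower and 12 higher without the 2 libraries, with a median of 0.31. Genes of the mitochondrial genome gave 4 lower and 0 higher of 15, with a median of -0.44, and 4 lower and 2 higher without the 2 libraries, with a median of -0.22. As the median difference from untreated cells they stood at 0.55, 0.84 and 0.57 log2 CPM in the Telmisartan libraries and at 0.73 in cisplatin replicate 3, 1.43 in replicate 2 and higher still in replicate 1, so that replicate 3 alone of the cisplatin libraries was inside the Telmisartan range. The 4 lower at an unadjusted p under 0.05 were MT-ND2, MT-ND3, MT-CO2 and MT-ATP6, which encode subunits of respiratory complexes I and IV and of ATP synthase. MT-ND3 stood at 1387, 1637 and 2192 CPM against 2050, 3679 and 2459 CPM. The ribosomal RNA MT-RNR1 did not go with them: it stood at 32002, 40056 and 5675 CPM against 46110, 12219 and 6153 CPM.

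**Figure D4:**
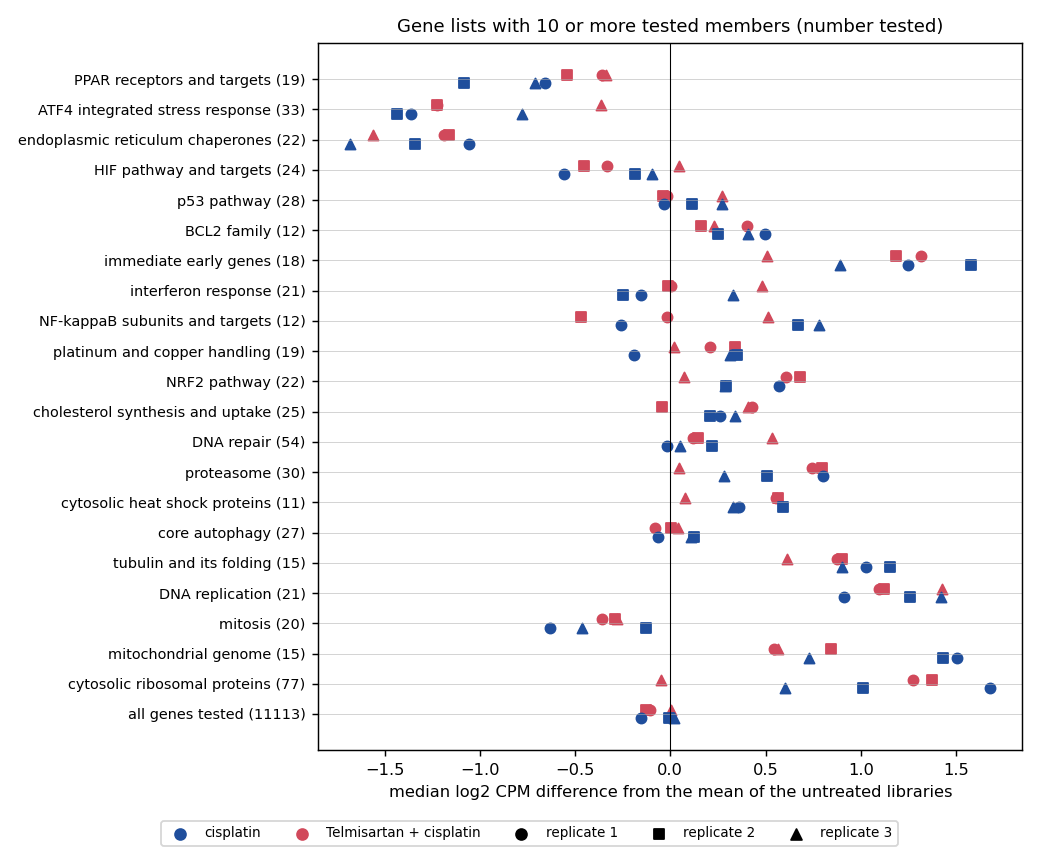
Median over the tested members of each gene list of the log2 CPM difference from the mean of the 3 untreated libraries (horizontal axis), for the cisplatin (blue) and Telmisartan + cisplatin (red) libraries, with the marker shape giving the replicate number and the number of tested members in brackets. The cytosolic ribosomal proteins run from -0.05 to 1.68 with the groups interleaved, while for all genes tested the medians run from -0.15 to 0.02.

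Markers of the tissue of origin were checked in the same libraries. Of 11 ovarian carcinoma markers 5 were tested, 1 lower and 0 higher at an unadjusted p under 0.05 (edgeR). Of the 5, 3 had negative values. The median log2 fold change was -0.54, with -0.67 to -0.31 when single libraries were left out and -0.23 without the 2 libraries. EPCAM and the keratin KRT18, both epithelial, were present at 19.9 to 25.0 and 105 to 174 CPM in the 6 libraries, whereas PAX8, KRT7, MUC16 and SOX17, which mark many ovarian carcinomas, were at 0 counts in all 6. KRT8, the keratin partner of KRT18, had an unadjusted p of 0.0404, at 7.14, 17.1 and 12.1 CPM with Telmisartan and 26.3, 21.1 and 12.3 CPM with cisplatin alone, and it overlaps KRT18 on the other strand. Of 12 markers of blood, endothelial, liver and stromal cells 4 were tested and 3, CD3E, VWF and CDH5, were at 0 in all 6 libraries. Their summed level was 30.9 to 47.3 CPM with Telmisartan and 30.4 to 44.8 CPM with cisplatin alone, and none had an unadjusted p under 0.05. Without the 2 libraries 0 of 5 tested ovarian markers were called, and 1 of the 4 markers of other cells was higher, the albumin gene ALB, with 19, 4 and 2 counts in the Telmisartan libraries against 6, 1 and 2 in the cisplatin libraries.

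The count of genes was largest, among the alternatives run, when both libraries that stood apart were left out. Without the library labelled cisplatin replicate 1, 244 genes were lower (2.15%) and 301 were higher (2.66%) at an adjusted p under 0.05 (edgeR). Without that library and Telmisartan replicate 3 together, 1408 of 11260 tested genes were lower (12.5%) and 1393 were higher (12.4%). Of the 545 genes called without cisplatin replicate 1, 536 were also called in the same direction without both, which is 98.3% of the former and 19.1% of the 2801 called in the latter. Each library was left out because it was far from its group, so the libraries that remain are closer within groups by that choice, and the groups that remain differ in how much mitochondrial ribosomal RNA they held, at 10.8% and 12.9% against 5.61% and 3.41%. These counts are therefore not independent support for an effect of Telmisartan. With that share entered in the model as a covariate and all libraries kept, an alternative chosen after seeing the data, 215 genes were lower and 125 were higher. Leaving out any other single library of the 6, Telmisartan replicate 3 included, gave 0 genes in either direction.

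**Figure D5:**
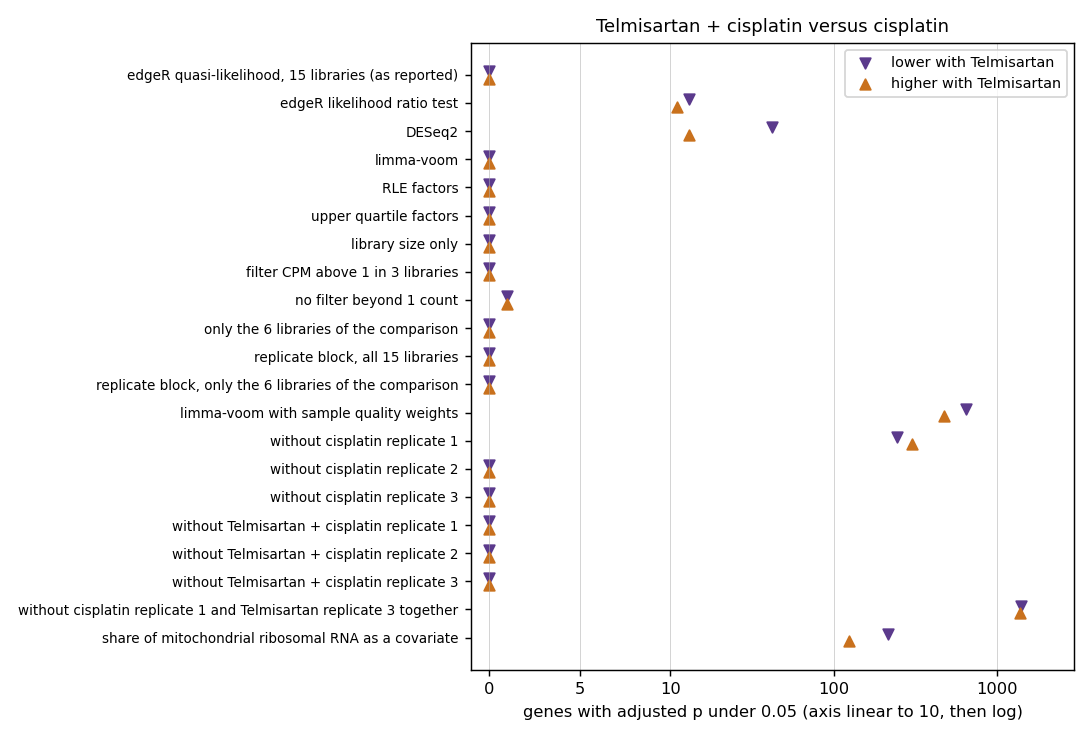
Number of genes with an adjusted p under 0.05 (horizontal axis, linear to 10 and then log) that were lower or higher with Telmisartan, for the fit reported here (top) and each alternative. The fit reported here gives 0 and 0, and the fit without cisplatin replicate 1 and Telmisartan replicate 3 gives 1408 and 1393.

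Telmisartan and Tranilast were compared directly, both with cisplatin, in libraries that share no control. With edgeR, 65 genes were lower with Telmisartan (0.585%) and 195 were higher (1.75%) at an adjusted p under 0.05, and 1109 (9.98%) and 1403 (12.6%) at an unadjusted one. Ribosomal protein genes made up 21 of those with higher values, and the other listed genes included 4 of the mitochondrial genome, 4 immediate early genes and 3 cytosolic heat shock proteins. In 37 of the 43 listed genes called here, the library labelled Telmisartan replicate 3 was nearer to the Tranilast mean than to the mean of Telmisartan replicates 1 and 2 on the log2 scale. The share over all tested or all called genes was not counted. In the distances given above this library was also nearer to the Tranilast libraries, at 0.151 to 0.209, than to its own replicates, at 0.481 and 0.492. With no share over all genes beside them, whether the 37 are particular to the listed genes cannot be told. RPL7A, a large-subunit ribosomal protein picked after its values were seen, stood at 1334, 1363 and 425 CPM with Telmisartan and at 373, 328 and 346 CPM with Tranilast. HSPA8, the constitutive HSP70, also picked afterwards, stood at 169, 170 and 44.6 CPM against 33.1, 33.8 and 30.0 CPM. ISG15, in contrast, was high in all 3 Telmisartan libraries, at 158, 166 and 135 CPM against 72.6, 54.5 and 56.6 CPM (log2 fold change 1.32, standard error 0.19, edgeR adjusted p = 0.0132). IER5 was also clear of the Tranilast libraries in each of the 3, at 140, 146 and 109 CPM against 72.6, 64.1 and 65.2 CPM (log2 fold change 0.97, standard error 0.18, edgeR adjusted p = 0.0412). ACSL3 was lower with Telmisartan, at 65.8, 61.3 and 90.3 CPM against 115, 151 and 154 CPM (log2 fold change -0.94, standard error 0.20, edgeR adjusted p = 0.0412). ATOX1, the copper chaperone that hands copper to ATP7A and ATP7B, stood at 185, 213 and 57.0 CPM against 56.6, 52.9 and 32.0 CPM, with Telmisartan replicate 3 next to the Tranilast libraries. All 260 genes kept their call and direction without Telmisartan replicate 3, where 1307 were lower and 1453 higher, and none was called without Telmisartan replicate 1, without replicate 2, or when only the 6 libraries of this comparison were used. limma-voom called 1 lower and 6 higher, scaling by library size alone 0 and 1, and the covariate for mitochondrial ribosomal RNA turned the balance to 245 lower and 80 higher. The cisplatin libraries enter through the shared spread: the counts were 373 lower and 779 higher without cisplatin replicate 1, 61 and 119 without replicate 2, and 157 and 428 without replicate 3.

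Telmisartan and Amphotericin B, both with cisplatin, differed at an adjusted p under 0.05 in 0 genes in either direction by edgeR (smallest adjusted p 0.0659), with 832 lower (7.49%) and 1451 higher (13.1%) at an unadjusted p under 0.05. The likelihood ratio test gave 128 lower and 332 higher and DESeq2 64 and 120. edgeR gave 192 and 473 without cisplatin replicate 1 and 6 and 11 without Telmisartan replicate 1. Of 21 interferon genes, 8 had higher values under Telmisartan and 1 a lower value at an unadjusted p under 0.05, and IFIT1, at 2.77 ± 1.77 CPM with Amphotericin B against 13.9 ± 10.7 CPM with Telmisartan (SD, n = 3), had a log2 fold change of 2.40 (edgeR adjusted p = 0.0952). SRXN1 stood at 113 ± 19.2 CPM with Amphotericin B against 214 ± 15.6 CPM with Telmisartan (edgeR adjusted p = 0.0936).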

How the data were processed

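Counts per gene were deposited by the authors as whole numbers, 1 table per library, without normalization, for 47634 Ensembl identifiers. The submitters' processing notes name STAR 2.3.0, HTSeq and hg19; the annotation release and the strand setting are not given in the sources used here. Total RNA (100 ng) was made into QuantSeq 3′ libraries and read as 75 bp single ends. Names came from GENCODE 29, which held 45776 of the identifiers, and 633 of 637 list entries matched; DDB2, PSMB3, TBCE and PECAM1 were not analysed here, and a few list members enter the counts but are not reported here by name.

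Genes were kept by filterByExpr and libraries scaled by TMM. The main test was the quasi-likelihood F test of edgeR 4.0.16 (R 4.3.3) with a term for each of the 5 groups over all 15 libraries, so that groups share 1 estimate of the spread, p adjusted by Benjamini and Hochberg, and 0.05 as the threshold. Standard errors are the log2 fold change divided by the root of F. limma 3.58.1 and DESeq2 1.42.0 were alternatives, with other scalings, filters, samples and thresholds. Tables and figures were made in Python 3.11.15 (pandas 2.3.3, numpy 2.4.6, matplotlib 3.10.9). The scripts were tested on simulated data. Log2 CPM used a prior count of 2.

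The members and the 26 gene lists were chosen with earlier results of these data known. Genes named were TBCC, GBP1 and PMAIP1; drug targets and platinum transporters; the 8 genes of smallest p in each direction whose groups do not overlap and whose mean reached 3 in log2 CPM; the 2 of smallest p in each list; and all members of the 2 terms of the study. The replicates of each group differed by more than sampling noise, so none was counted as a repeat. Intervals cover the spread shared by all 15 libraries, and limits from 0 counts cover counting error only. The coefficient of variation was 0.338 and 0.300 in the cisplatin and Telmisartan groups. It was 0.0740, 0.0839 and 0.180 in the untreated, Tranilast and Amphotericin B groups. Standard errors, intervals and p of the main fit may thus be too small for the 2 groups compared. Gene-level coordinates are not given, because the files hold none.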

Additional observations from a re-analysis of the deposited data

Results flagged for a closer look

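Telmisartan and Tranilast, each with cisplatin, differed in a direct test: 65 genes had lower values under Telmisartan and 195 higher values at an adjusted p under 0.05 (edgeR). These counts were 0 and 0 without Telmisartan replicate 1, without Telmisartan replicate 2 and with the 6 libraries of the comparison alone, 1 and 6 by limma-voom, 0 and 1 with scaling by library size only, and 245 and 80 with the mitochondrial ribosomal RNA covariate. They were 379 and 661 by the likelihood ratio test, 279 and 795 by DESeq2, and 131 and 312 with the replicate block over all 15 libraries. The library labelled Telmisartan replicate 3, whose distances to the Tranilast libraries were 0.151 to 0.209, was part of the direct test. Its part in the counts was tested only by leaving it out, which gave 1307 lower and 1453 higher. Among the named genes, ACSL3 (log2 fold change -0.94) and IER5 (log2 fold change 0.97) passed the direct test with all libraries. In both, all 3 Telmisartan libraries lay on 1 side of all 3 Tranilast libraries.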

How the results depend on the processing

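Replicates of the cisplatin and Telmisartan groups were not taken as paired in the fit reported here, since no label states a pairing. Deviations of same-numbered libraries correlated at -0.17 to 0.63 (mean 0.26), and those of different numbers at -0.58 to 0.48 (mean -0.14). These overlapping ranges do not settle whether the replicates were paired. The replicate block gave 0 genes lower and 0 higher against cisplatin, with all 15 libraries and with the 6 alone. It gave 131 and 312 against Tranilast and 1 lower against Amphotericin B with 15 libraries, and 0 in either with 6.

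Against cisplatin, where the count was 0 lower and 0 higher, the likelihood ratio test gave 13 and 11, DESeq2 42 and 13, no filter 1 and 1, limma-voom with sample quality weights 647 and 478, the covariate for mitochondrial ribosomal RNA (chosen after seeing the data) 215 and 125, and leaving out both libraries that stood apart 1408 and 1393. Single libraries left out gave 0 to 244 lower and 0 to 301 higher. limma-voom, the 3 other scalings, the CPM filter and the 6 libraries alone gave 0 and 0. Against Tranilast (65 and 195) the values were 379 and 661 with the likelihood ratio test, 279 and 795 with DESeq2, 1 and 6 with limma-voom, 29 and 112 with upper quartile factors, 0 and 1 with library size only, 322 and 686 without filter, 0 and 0 with the 6 libraries alone, 2053 and 1949 with quality weights, 245 and 80 with the covariate, 2175 and 1943 without both libraries, 0 and 0 at 0.01, 369 and 687 at 0.1, and 0 to 1307 and 0 to 1453 with single libraries left out. Against Amphotericin B (0 and 0) they were 128 and 332 with the likelihood ratio test, 64 and 120 with DESeq2, 2 lower with limma-voom, 186 and 670 without filter, 4 and 3 with quality weights, 3 lower with the covariate, 37 and 93 without both libraries, 25 and 96 at 0.1, and 0 to 192 and 0 to 473 with single libraries left out. The coefficient of variation ran from 0.184 to 0.417 for cisplatin and from 0.112 to 0.362 for Telmisartan with a replicate left out. Scaling by library size moved the median log2 fold change of all genes to 0.11 against cisplatin, -0.39 against Tranilast and 0.38 against Amphotericin B, and split the unadjusted calls against cisplatin 209 lower to 743 higher, in place of 592 to 558. The cause of these differences was not tested.

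Among the named genes, log2 fold changes against cisplatin turned sign in 36 values, none of them past the threshold as reported. Without both libraries they were 0.29 for ATP6AP2, -0.13 for ATP7A, -0.60 for BBC3, -0.055 for CEBPB, -0.11 for GCLC, 0.13 for RPS24, -0.11 for STC2 and -0.042 for TRIB3. With quality weights they were 0.15 for ATP6AP2, -0.95 for ATP7A and -0.26 for BBC3, and with limma-voom -0.40 for ATP7A. With single libraries left out, ALB ran from -0.30 to 2.46, ATP6AP2 from -0.41 to 0.19, ATP7A from -0.17 to 0.68, BBC3 from -0.27 to 0.64, MDM4 from -0.26 to 0.096 and VEGFA from -0.16 to 0.081. MDM4 and VEGFA, both near 0, also turned with upper quartile factors (0.017 and 0.014), library size only (0.13 and 0.12), the CPM filter (0.024 and 0.021), no filter (0.030 and 0.026) and the covariate (0.028 and 0.00073). TBCC and GBP1 had an adjusted p under 0.05 in 6 of 20 alternatives each and PMAIP1 in 2 of 20, with smallest adjusted p of 7.73e-06, 0.00132 and 0.00791 (edgeR, without both libraries); their directions held in all 20. With 3 libraries per group and 2171154 to 2983548 counts, the precision is set by the spread between libraries.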
